A study of Homo sapiens with 12 samples.

Results

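The 54 genes described here code for plasma proteins that hepatocytes make and secrete: apolipoproteins, carriers, protease inhibitors, coagulation factors, complement proteins and adhesive glycoproteins. They were taken from a list of symbols, and a gene counted as having a peak when that symbol stood as the gene name of a deposited peak. Of the 54 genes, 47 had a peak in at least 1 of 6 lists, among 10830 gene names with a peak in any list, and they carried 367 peaks in all. The list of symbols was not chosen on peak values, although earlier results of these peak lists were known when it was drawn up.

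The peaks came from RNA immunoprecipitation followed by sequencing (RIP-seq), which recovers the RNA held by a protein and sets it against input RNA from the same lysate. The cells were HepG2, an established human liver cancer line that still makes many hepatocyte products, overexpressing Flag-tagged METTL16, eIF3a or eIF3b and crosslinked with ultraviolet light before lysis. Each of these 3 proteins had 2 RIP samples and 2 inputs taken without antibody, 12 samples in all, and whether the overexpressing cells were a pool or 1 clone was not stated. By the labels the pull-down used a Flag antibody for METTL16 and eIF3b and an antibody to eIF3a for eIF3a. Antibody and protein therefore cannot be told apart for eIF3a. None of the 12 samples is labelled as a pull-down with a control antibody or from untagged cells. What METTL16 and eIF3b share therefore cannot be told apart from what the Flag antibody recovers by itself. The lists themselves are all named for Flag. The study calls the replicates biological, and the labels do not say whether they were separate cultures. The p-values of the tests between proteins below therefore measure only the spread between samples. The p-values of single peaks come from the peak caller within 1 list and do not measure that spread.

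Messenger RNAs for secreted proteins are translated on ribosomes that dock at the endoplasmic reticulum, where a signal peptide sends the growing chain into the lumen. METTL16 is a methyltransferase that places m6A on RNA and is best known for its action on U6 RNA and on the MAT2A transcript. eIF3a and eIF3b are subunits of eukaryotic initiation factor 3, which helps the small ribosomal subunit load on an mRNA and find its start codon. Plasma protein transcripts are classic hepatocyte products, and HepG2 cells are known to keep secreting albumin, apolipoproteins and clotting factors in culture.

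On 16 of the genes the peaks of at least 5 of the 6 lists fell on the same bases. No such count is given over all genes with a peak, so this number is a description only. The coding stretches below are shown as examples in which such a recurrent stretch lies within a single exon of a gene with a known function, while others on APOA1, SERPINF2, F5 and C3 are not printed. Each is the transcript strand of GRCh38 over the bases of that exon covered in at least 4 lists, and capitals mark the bases covered in at least 5 lists.
SERPINC1 exon 5, chr1:173909610-173909787, minus strand: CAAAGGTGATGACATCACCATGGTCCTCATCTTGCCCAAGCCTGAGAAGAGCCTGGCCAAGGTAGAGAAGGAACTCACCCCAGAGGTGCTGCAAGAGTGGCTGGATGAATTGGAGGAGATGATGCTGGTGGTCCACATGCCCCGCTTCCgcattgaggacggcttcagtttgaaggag
F2 exon 2, chr11:46719733-46719853, plus strand: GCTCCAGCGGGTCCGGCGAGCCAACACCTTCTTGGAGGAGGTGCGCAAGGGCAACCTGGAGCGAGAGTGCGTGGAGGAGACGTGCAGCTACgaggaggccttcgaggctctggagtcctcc
F10 exon 6, chr13:113143851-113144030, plus strand: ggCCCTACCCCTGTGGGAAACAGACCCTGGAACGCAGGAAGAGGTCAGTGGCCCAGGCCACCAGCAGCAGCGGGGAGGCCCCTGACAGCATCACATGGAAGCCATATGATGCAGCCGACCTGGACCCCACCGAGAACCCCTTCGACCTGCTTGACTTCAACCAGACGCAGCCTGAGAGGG
FGA exon 5, chr4:154586341-154586550, minus strand: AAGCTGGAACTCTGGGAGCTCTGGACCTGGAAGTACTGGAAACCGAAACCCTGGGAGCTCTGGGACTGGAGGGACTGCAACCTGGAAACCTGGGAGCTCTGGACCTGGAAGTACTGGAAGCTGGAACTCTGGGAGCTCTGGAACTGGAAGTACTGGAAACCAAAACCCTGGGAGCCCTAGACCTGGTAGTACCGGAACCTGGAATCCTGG
F5 exon 13, chr1:169540735-169540915, minus strand: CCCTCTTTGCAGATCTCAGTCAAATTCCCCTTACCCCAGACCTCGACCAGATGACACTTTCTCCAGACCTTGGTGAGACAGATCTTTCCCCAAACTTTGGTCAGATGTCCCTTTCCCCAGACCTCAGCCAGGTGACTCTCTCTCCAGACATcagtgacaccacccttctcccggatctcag
APOA2 exon 3, chr1:161222918-161223050, minus strand: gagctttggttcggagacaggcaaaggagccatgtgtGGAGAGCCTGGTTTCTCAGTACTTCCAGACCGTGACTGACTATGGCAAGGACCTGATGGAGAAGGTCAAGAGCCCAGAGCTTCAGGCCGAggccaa

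The peak lists as a whole held 12854 to 21618 peaks that could be placed on gene models, and eIF3a replicate 2 was the shortest. Of 10 hepatocyte markers, 9 had a peak in some list and 1 to 8 per list, TTR being the exception. All of these markers belong to the plasma protein genes described here, so they are not a separate check of cell type. Markers of T and B cells, macrophages, endothelial cells and stellate cells had a peak for 1 or 2 of 5 each, and cholangiocyte markers for 3 of 5. No read counts were analysed, so the depth behind a peak and the level of each transcript in the cells are unknown, and more transcript per cell cannot be told apart from more cells with the transcript.

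The plasma protein genes had peaks in a larger share than all protein coding genes in 5 lists and in a smaller share in eIF3a replicate 2. METTL16 peaks lay on 27 of the 54 genes in replicate 1 (50%, 95% Wilson interval 37.1 to 62.9) and on 36 in replicate 2 (66.7%, 53.4 to 77.8), against 28.9% and 31.4% of 20020 protein coding genes. eIF3a peaks lay on 32 genes in replicate 1 (59.3%, 46.0 to 71.3) and on 5 in replicate 2 (9.26%, 4.02 to 19.9), against 40.5% and 25.9%. eIF3b peaks lay on 30 genes in each replicate (55.6%, 42.4 to 68.0), against 40.0% and 37.5%. These intervals cover counting error over genes only. At least 1 list held a peak for 87.0% of the plasma protein genes, against 53.6% of all protein coding genes. Over only the genes with a peak in some list, the order reversed for eIF3a replicate 1 and both eIF3b lists. The plasma protein genes then lay lower, at 32 of 47 against 8099 of 10724 for eIF3a replicate 1. For eIF3b it was 30 of 47 in each list against 8001 and 7514 of 10724. They stayed higher for METTL16 (27 and 36 of 47 against 5792 and 6289 of 10724) and lower in eIF3a replicate 2.

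**Figure D1:**
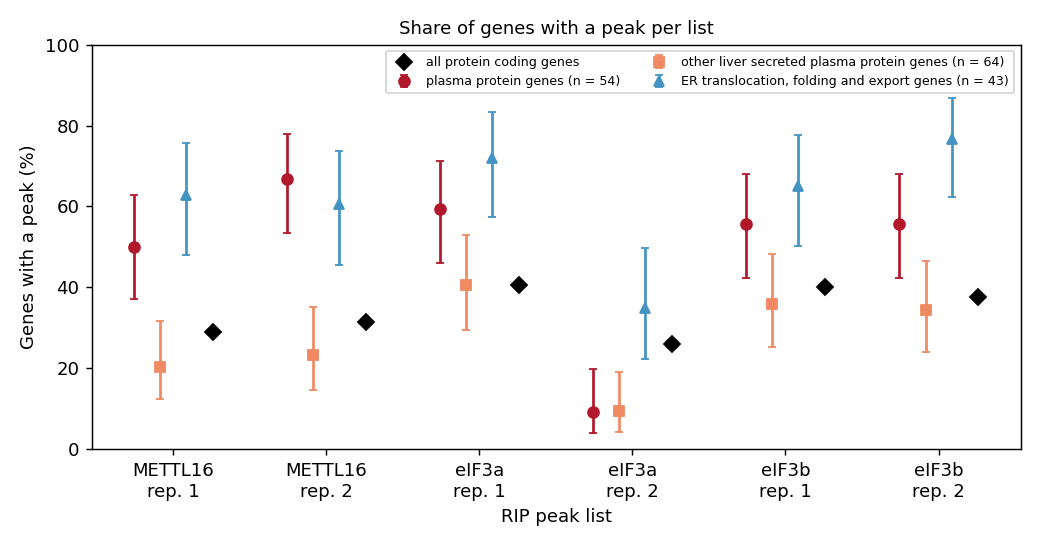
Share of genes with a peak (y axis, percent) in each of the 6 peak lists (x axis) for the 54 plasma protein genes, the 64 other liver secreted plasma protein genes, the 43 genes of endoplasmic reticulum (ER) translocation, folding and export, and all protein coding genes, with bars for the 95% Wilson interval. The 54 genes lie between 50% and 66.7% in 5 lists and at 9.26% in eIF3a replicate 2.

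A peak in both replicates was found on 25 plasma protein genes for METTL16 (46.3%, against 22.9% of all protein coding genes) and on 25 for eIF3b (46.3%, against 32.2%). Over only the genes with a peak in some list, METTL16 stayed higher, at 25 of 47 against 4583 of 10724. The eIF3b share was then lower, at 25 of 47 against 6448 of 10724. For eIF3a a peak in both replicates was found on 5 genes (9.26%, against 22.8%). That count is set by eIF3a replicate 2, since without that list 32 genes had an eIF3a peak. METTL16 and eIF3b shared 18 of these genes, 72.0% of each set. Over all protein coding genes they shared 3923, which was 85.6% of the METTL16 set and 60.8% of the eIF3b set. All 5 eIF3a genes were also eIF3b genes, and 4 of them were METTL16 genes, against 86.8% and 61.5% of the 4563 eIF3a genes of any kind. Mean shares per list were 58.3% ± 11.8 for METTL16, 34.3% ± 35.4 for eIF3a and 55.6% ± 0 for eIF3b (SD, n = 2 lists each). The difference was 24.1 percentage points between METTL16 and eIF3a (exact permutation test, two-sided, p = 0.667), 2.78 between METTL16 and eIF3b (exact permutation p = 1) and -21.3 between eIF3a and eIF3b (exact permutation p = 1). With 2 lists against 2 the smallest p this test can give is 0.333, so no difference between proteins could pass 0.05.

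The absence in eIF3a replicate 2 could be followed gene by gene. Of 17 plasma protein genes with a peak in all the other 5 lists, 4 had a peak there (23.5%), against 73.0% of 3717 genes of any kind with a peak in the other 5 lists. The 13 without were AGT, AMBP, APOA1, APOA2, APOB, APOE, CLU, F10, F2, FN1, ITIH3, RBP4 and SERPINC1. The same comparison gave 80.0% of 5 genes against 83.4% for METTL16 replicate 2, where F5 was missing, and 4 of 4 plasma protein genes for each of the other lists, against 91.2% to 99.3%.

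Related genes gave a different level. Of 64 further genes for liver secreted plasma proteins, 13 and 15 had METTL16 peaks (20.3% and 23.4%), 26 and 6 had eIF3a peaks (40.6% and 9.38%) and 23 and 22 had eIF3b peaks (35.9% and 34.4%). The shares of all protein coding genes were 28.9% and 31.4% for METTL16, 40.5% and 25.9% for eIF3a, and 40.0% and 37.5% for eIF3b. For METTL16 the 64 genes therefore lay below all protein coding genes in both lists, whereas the 54 genes lay above them. APOL1, an apolipoprotein of high density lipoprotein, was the only one of the 64 genes with a peak in all 6 lists. Of 43 genes for ER translocation, folding and export, the machinery through which secreted chains pass, 27 and 26 had METTL16 peaks (62.8% and 60.5%), 31 and 15 had eIF3a peaks (72.1% and 34.9%) and 28 and 33 had eIF3b peaks (65.1% and 76.7%). Of these 43 genes, 10 had a peak in all 6 lists, namely SEC61A1, SRPRA, SSR1, SSR3, HSPA5, PDIA4, CALR, CANX, SURF4 and SEC23A. In eIF3a replicate 2 the share of ER genes, 34.9%, lay above the 25.9% of all protein coding genes, while the shares of both groups of plasma protein genes, 9.26% and 9.38%, lay below it. These shares are descriptions, and no test was run between the groups of genes.

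**Figure D2:**
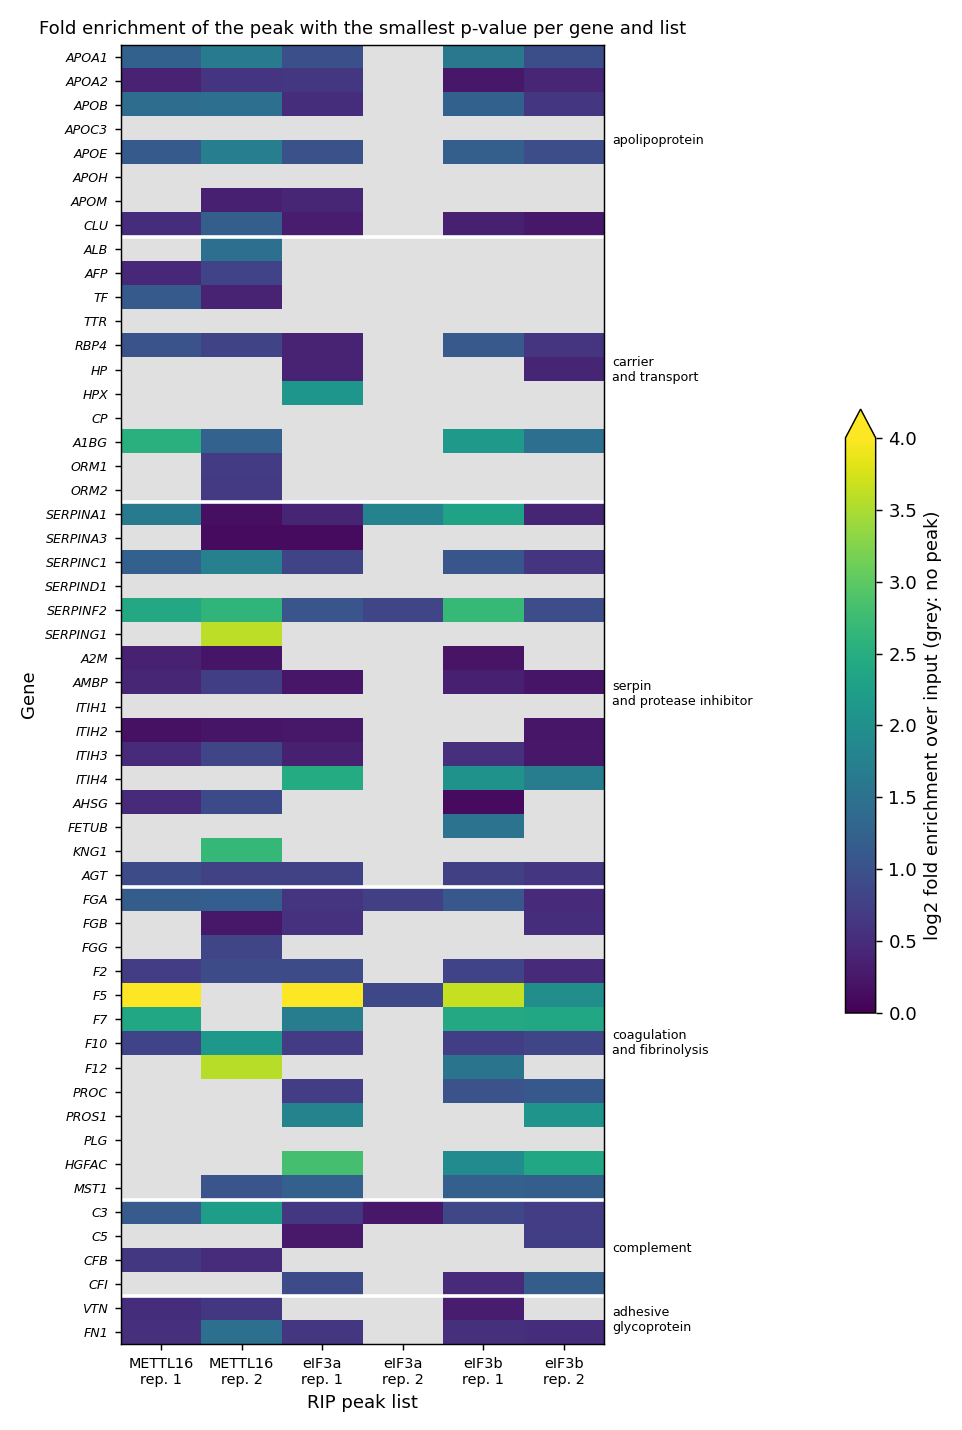
Fold enrichment over input on a log2 scale (colour) of the peak with the smallest p-value, for each of the 54 plasma protein genes (rows, grouped by role) in each of the 6 peak lists (columns), with grey for no peak and log2 values above 4 shown in the top colour. The column of eIF3a replicate 2 is grey for 49 genes, and F5 is the brightest row.

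Peaks were found in all 6 lists on 4 of the plasma protein genes (7.41%, against 13.6% of all protein coding genes), namely SERPINA1, SERPINF2, FGA and C3. Another 14 had a peak in 5 lists (APOA1, APOA2, APOB, APOE, CLU, RBP4, SERPINC1, AMBP, ITIH3, AGT, F2, F5, F10 and FN1). Peaks in 4 lists were found for A1BG, ITIH2, F7 and MST1, and in 3 lists for A2M, ITIH4, AHSG, FGB, PROC, HGFAC, CFI and VTN. APOM, AFP, TF, HP, SERPINA3, F12, PROS1, C5 and CFB had peaks in 2 lists. ALB, HPX, ORM1, ORM2, SERPING1, FETUB, KNG1 and FGG had peaks in 1 list, and APOC3, APOH, TTR, CP, SERPIND1, ITIH1 and PLG in none. The canonical transcripts of these last 7 ran from 535 to 4452 bases with a median of 2203, near the median of 2160 over all 54.

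Some genes appeared with METTL16 alone. AFP, TF and CFB had a peak in both METTL16 lists and in no eIF3a or eIF3b list, and ALB, FGG, KNG1, ORM1, ORM2 and SERPING1 had a peak in METTL16 replicate 2 only, so 6 of these 9 rest on 1 list. The 3 genes were 12% of the 25 with a peak in both METTL16 lists, against 2.05% of 4583 protein coding genes, and the 9 were 23.7% of the 38 with a peak in either, against 7.67% of 7498. No test was run on these shares. No gene had peaks in both lists of eIF3a (0 of 5) or of eIF3b (0 of 25) and in none of the other proteins. Over all protein coding genes these shares were 2.59% of 4563 and 2.61% of 6448. HPX was seen in eIF3a replicate 1 only and FETUB in eIF3b replicate 1 only. Each was the 1 such gene among those with a peak in either list, 3.12% of 32 for eIF3a and 2.86% of 35 for eIF3b. The matching shares of all protein coding genes were 9.29% of 8719 and 7.73% of 9067, and none of these shares was tested. ITIH4, PROC, HGFAC and CFI had a peak in eIF3a replicate 1 and in both eIF3b lists with none for METTL16. HP, PROS1 and C5 showed the same with eIF3b replicate 2 alone.

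Among the 8 apolipoprotein genes, APOA1, APOA2, APOB, APOE and CLU had a peak in the same 5 lists, APOM had one in 2, and APOC3 and APOH in none. APOA1 codes for the main protein of high density lipoprotein. Its best peak, the one with the smallest p-value in a list, had a fold enrichment over input of 2.36 and 3.16 for METTL16, 1.97 for eIF3a replicate 1, and 3.05 and 1.95 for eIF3b. APOA1 peaks covered 50.2% to 100% of the canonical transcript in those lists, and chr11:116835901-116836319 in exon 4, the exon that codes for most of the helices that hold lipid, was covered in 5 of them. APOE codes for the ligand that remnant particles use to reach the low density lipoprotein receptor. Its folds were 2.19 and 3.26 for METTL16, 1.98 for eIF3a replicate 1, and 2.31 and 1.93 for eIF3b, with 63.6% to 94.0% of the transcript covered. For both genes METTL16 replicate 2 had the highest of these folds and eIF3b replicate 2 the lowest.

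APOB codes for the very large scaffold of low density lipoprotein and was covered over far less of its length, 1.93% to 5.35%. All 5 lists with an APOB peak had a peak on exon 1, where chr2:21043923-21044073 reaches from the 5′ end of the transcript past the start codon. The exon 1 peaks had folds of 2.70 and 2.75 for METTL16, 1.87 for eIF3a replicate 1, and 2.37 and 1.38 for eIF3b. Peaks in exon 26 and in the 3′ UTR (exon 29) were present in eIF3a replicate 1 and eIF3b replicate 2 and absent from both METTL16 lists and eIF3b replicate 1. Both METTL16 lists and eIF3b replicate 1 instead had a peak in exon 4. APOA2, which codes for the second protein of high density lipoprotein, had low folds between 1.19 and 1.56 in its 5 lists, all of which covered the capitals of the exon 3 stretch printed above.

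The 11 carrier and transport genes had peaks on 4 and 7 genes for METTL16 (36.4% and 63.6%), 3 and 0 for eIF3a (27.3% and 0%), and 2 and 3 for eIF3b (18.2% and 27.3%). These shares lay above those of all protein coding genes for METTL16 and below them for eIF3a and eIF3b, with wide intervals at 11 genes. ALB, the gene of serum albumin, had 2 peaks, both in METTL16 replicate 2. The larger spanned exons 4 to 5 at chr4:73408640-73409429 with a fold of 2.75 and a log10 p-value of -2870, which gave it rank 6 in that list. AFP, the fetal counterpart of albumin that liver cancer cells often make, lies beside ALB on chromosome 4 and had a fold of 1.37 and 1.74 in its best METTL16 peaks. The AFP peaks near the 3′ end overlapped between the METTL16 replicates over exons 13 to 15, whereas a peak over exons 3 to 4 was in replicate 2 only. TF, the iron carrier transferrin, had folds of 2.19 and 1.32 in its best METTL16 peaks, and its 3′ UTR peaks in both replicates overlapped. TTR and CP, carriers of thyroid hormone and copper, had no peak. RBP4, the retinol carrier, had folds of 2.03 and 1.77 for METTL16, 1.31 for eIF3a replicate 1, and 2.17 and 1.52 for eIF3b, and A1BG, a plasma glycoprotein of the immunoglobulin family, had 5.81 and 2.38 for METTL16 and 4.50 and 2.76 for eIF3b with no eIF3a peak. ORM1 and ORM2 are near-identical neighbours, so their single peaks in METTL16 replicate 2 may share reads, and HP has a near-identical copy too.

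The 16 serpins and other protease inhibitors had peaks on 9 and 12 genes for METTL16, 9 and 2 for eIF3a, and 10 and 8 for eIF3b. SERPINA1, which codes for alpha-1 antitrypsin, was listed everywhere with folds of 3.15 and 1.12 for METTL16, 1.33 and 3.44 for eIF3a, and 4.92 and 1.33 for eIF3b. The best SERPINA1 peak moved between lists, from the upstream exons and the start of the coding sequence in 4 lists to bases 478 to 628 after the start codon, in exon 2, in METTL16 replicate 2 and to the 3′ UTR in eIF3a replicate 2. It was in the 3′ UTR that 91 bases (chr14:94377255-94377345, exon 5) were covered in all 6 lists. Some of the upstream SERPINA1 peaks lay on exons outside the canonical transcript. SERPINF2, the gene of the plasmin inhibitor alpha-2 antiplasmin, had folds of 5.31 and 6.11 for METTL16, 2.08 and 1.79 for eIF3a, and 6.44 and 1.93 for eIF3b. It had 2 stretches of the 3′ UTR in exon 10 covered in all 6 lists, chr17:1754672-1754791 and chr17:1754969-1755146. SERPINF2 was the only plasma protein gene with a fold of 4 or more in both METTL16 lists, and eIF3b replicate 1 also passed that fold while eIF3b replicate 2 and both eIF3a lists did not.

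SERPINC1, the gene of antithrombin, had a single peak in each of 5 lists, always in exon 5 on the bases printed above, with folds of 2.33 and 3.35 for METTL16, 1.77 for eIF3a replicate 1, and 2.11 and 1.51 for eIF3b. The peaks were 149 to 238 bases wide and shared 149 bases. AGT, whose product angiotensinogen is the precursor of angiotensin and a serpin by fold, had a peak over exons 2 to 3 in all 5 of its lists, with folds of its best peak between 1.55 and 1.90. A2M, the gene of the broad protease trap alpha-2 macroglobulin, had peaks of low fold in 3 lists (1.29 and 1.17 for METTL16 and 1.16 for eIF3b replicate 1). The A2M peaks of METTL16 replicate 1 and eIF3b replicate 1 overlapped in exon 19, and that of METTL16 replicate 2 lay in exons 33 to 34. ITIH4, an inter-alpha-trypsin inhibitor heavy chain, had folds of 5.51 for eIF3a replicate 1 and 4.12 and 3.20 for eIF3b, and no METTL16 peak. SERPING1, the complement C1 inhibitor, had 2 peaks in METTL16 replicate 2 alone, the stronger with a fold of 12.2.

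The 13 coagulation and fibrinolysis genes had peaks on 5 and 7 genes for METTL16 (38.5% and 53.8%), 10 and 2 for eIF3a (76.9% and 15.4%), and 9 and 10 for eIF3b (69.2% and 76.9%). All protein coding genes had 28.9% and 31.4%, 40.5% and 25.9%, and 40.0% and 37.5% in the same order. The shares of the 13 genes lay above these except in eIF3a replicate 2, with wide intervals at 13 genes. The 3 fibrinogen chains lie side by side on chromosome 4 and are made in step for assembly, but their peaks differed. FGA, the alpha chain, had a peak in all 6 lists with folds of 2.26 and 2.28 for METTL16, 1.51 and 1.69 for eIF3a, and 2.12 and 1.39 for eIF3b. In 5 of them the best peak was the exon 5 stretch printed above, whereas eIF3a replicate 2 had only peaks downstream, on exons outside the canonical transcript. FGB, the beta chain, had a best fold of 1.20 for METTL16 replicate 2, 1.49 for eIF3a replicate 1 and 1.43 for eIF3b replicate 2, and FGG, the gamma chain, had 1 peak, in METTL16 replicate 2 with a fold of 1.78.

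F5, the gene of coagulation factor V, had the highest single fold of the 54 genes and the highest median over lists of the best fold. Its best peak had a fold of 82.1 in METTL16 replicate 1 and none in METTL16 replicate 2, 16 and 1.83 for eIF3a, and 12.5 and 3.94 for eIF3b. F5 carried 4, 0, 10, 7, 5 and 12 peaks in the lists in that order. The peaks crowded in exon 13, the long exon that codes for the B domain removed when factor V is activated, where 3 stretches were covered in 5 lists, at chr1:169541935-169542175, chr1:169541455-169541575 and chr1:169540765-169540915. A stretch at the start codon in exon 1 (chr1:169586321-169586471) was also covered in 5 lists. The 2 replicates of METTL16 therefore lie at opposite ends for this gene, and the value of 82.1 has no replicate.

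F2, the gene of prothrombin, had folds of 1.65 and 1.90 for METTL16, 1.90 for eIF3a replicate 1, and 1.74 and 1.41 for eIF3b, and F10, the gene of factor X, had 1.74 and 4.40, 1.62, and 1.68 and 1.78 in the same lists. The exon 2 stretch of F2 printed above codes for part of the propeptide and of the domain whose glutamates are carboxylated with vitamin K, and the exon 6 stretch of F10 includes part of the activation peptide. F7, the gene of factor VII, had folds of 5.30 for METTL16 replicate 1, 3.22 for eIF3a replicate 1, and 5.33 and 5.19 for eIF3b, and together with F5 it was one of the 2 plasma protein genes with a peak of fold 4 or more in both eIF3b lists. Log10 p-values of these F7 peaks from the peak caller were -4.26 for METTL16 replicate 1, -7.89 for eIF3a replicate 1, and -19.8 and -19.6 for eIF3b. METTL16 replicate 2 had no F7 peak. HGFAC, whose product activates hepatocyte growth factor, had folds of 7.03 for eIF3a replicate 1 and 3.82 and 5.24 for eIF3b. MST1, a growth factor related to plasminogen with a near-identical copy in the genome, had folds of 2.07 for METTL16 replicate 2, 2.34 for eIF3a replicate 1, and 2.33 and 2.31 for eIF3b. PLG, the gene of plasminogen itself, had no peak.

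Of the 4 complement genes, C3, on which all complement pathways meet, had 2 to 8 peaks in each of the 6 lists, with best folds of 2.21 and 4.68 for METTL16, 1.56 and 1.20 for eIF3a, and 1.80 and 1.66 for eIF3b. A stretch of 91 coding bases across exons 37 to 38 (chr19:6679193-6679481 with the intron between them) was covered in all 6 lists. CFB, a protease component of the alternative pathway, had peaks in the METTL16 lists only, and both had a peak in the 5′ UTR in exon 1, with folds of 1.57 and 1.30. Of the 2 adhesive glycoproteins, FN1, the gene of fibronectin, had best folds of 1.47 and 2.74 for METTL16, 1.55 for eIF3a replicate 1, and 1.47 and 1.43 for eIF3b. All 5 of those lists covered chr2:215425228-215428272 across exons 6 to 7. VTN, the gene of vitronectin, had folds between 1.24 and 1.56 in 3 lists.

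**Figure D3:**
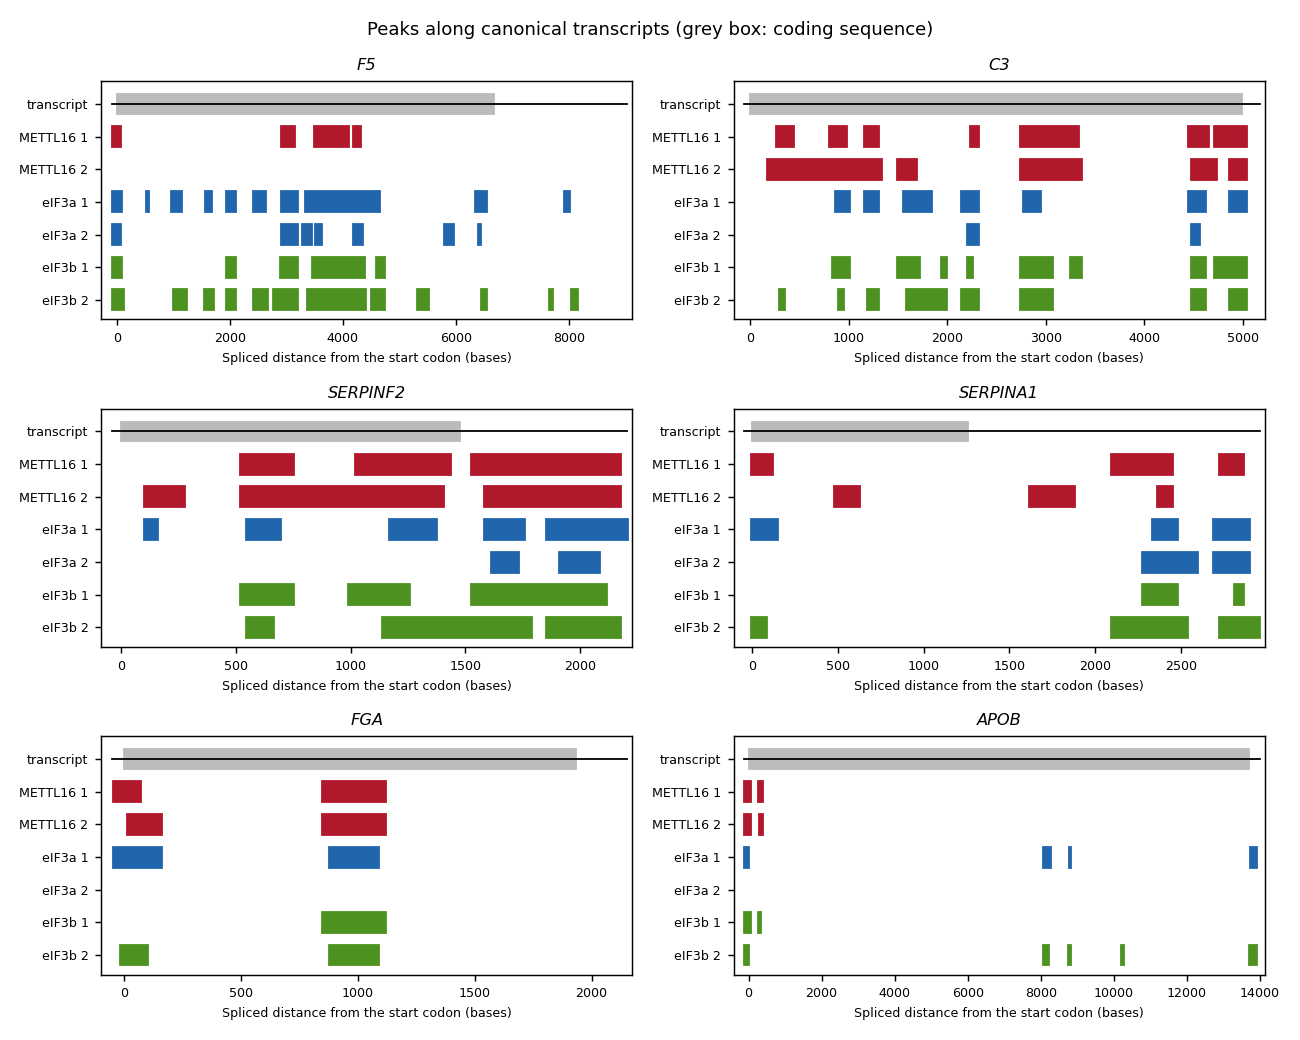
Peaks of each list (coloured bars) along the canonical transcripts of F5, C3, SERPINF2, SERPINA1, FGA and APOB (x axis, spliced bases from the start codon), with the coding sequence as a grey box and replicate numbers after the protein names. Peaks on exons outside the canonical transcript are not drawn. F5 peaks crowd in the middle of the coding sequence, SERPINF2 and SERPINA1 peaks recur in the 3′ UTR, and APOB peaks lie mostly near the ends.

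Apart from F5 and a few others, the peaks on plasma protein genes were of low fold and small p-value. The median fold enrichment was 1.59 and 1.61 in the METTL16 lists, 1.56 and 1.71 in the eIF3a lists, and 1.70 and 1.52 in the eIF3b lists, against 3.09, 3.40, 2.98, 2.73, 3.20 and 2.94 for all peaks of the same lists. Between 84.0% and 89.4% of the peaks of each list on these genes lay below the median fold of their list. Their median -log10 p-values were nevertheless larger, at 28.4, 21.5, 10.4, 12.9, 23.9 and 10.1 against 6.49, 5.81, 4.78, 6.20, 7.11 and 5.27. Only 35 of the 367 peaks, 9.54%, had a fold of 4 or more, against 35.0% of all peaks, and they lay on 15 genes. These were A1BG, C3, F10, F12, F5, F7, FGB, HGFAC, HPX, ITIH4, KNG1, PROS1, SERPINA1, SERPINF2 and SERPING1.

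By the median over lists of the best fold, the highest genes with a peak in both lists of some protein were F5 (12.5 over 5 lists), F7 (5.25 over 4), HGFAC (5.24 over 3), ITIH4 (4.12 over 3), SERPINF2 (3.69 over 6) and A1BG (3.63 over 4). APOB (2.37), APOA1 (2.36), MST1 (2.32) and SERPINA1 (2.24) followed closely together. The best ITIH4 peaks had log10 p-values from the peak caller of only -5.11 in eIF3a replicate 1 and -4.2 and -3.34 in the eIF3b lists. ITIH4 peaks of the 2 eIF3b lists did not overlap. Peak width did not set the plasma protein genes apart. The median exonic width was 181 and 210 bases for METTL16, 180 and 181 for eIF3a, and 180 and 181 for eIF3b, against 180 to 210 for all peaks. Fewer of the peaks lay in a single exonic block, 37.9% to 49.4% in 5 lists against 54.2% to 62.1% of all peaks, and in eIF3a replicate 2 the share was 80.0% of 15 peaks against 56.6%.

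**Figure D4:**
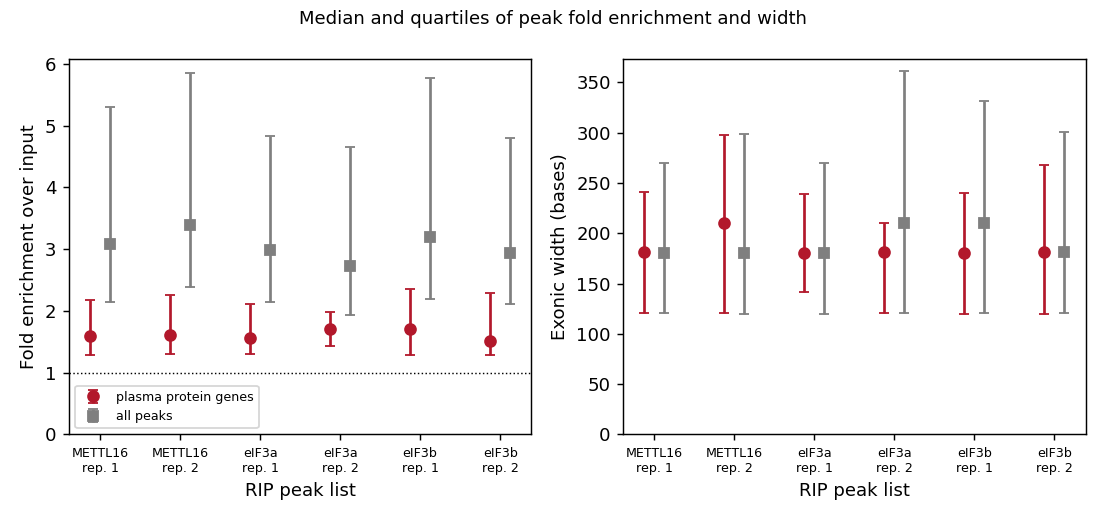
Median (points) and quartiles (bars) of fold enrichment over input (left, y axis, dotted line at 1) and exonic peak width in bases (right, y axis) for peaks on the 54 plasma protein genes and for all peaks, by peak list (x axis). The median fold of the plasma protein genes is 1.52 to 1.71 in every list, below the 2.73 to 3.40 of all peaks, while the widths overlap.

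The centre of a peak on a plasma protein gene lay in the coding sequence for 83.3% and 87.9% of METTL16 peaks, 82.1% and 66.7% of eIF3a peaks, and 86.6% and 77.8% of eIF3b peaks. Over all peaks these shares were 60.8%, 68.4%, 56.6%, 57.9%, 60.7% and 57.5%. The 3′ UTR held 9.26% and 7.58% for METTL16, 15.5% and 26.7% for eIF3a, and 7.46% and 17.3% for eIF3b, against 23.9% to 38.3% over all peaks. The canonical transcripts of the 54 genes are 69.9% coding sequence and 27.5% 3′ UTR by length, or 78.2% and 18.9% without TF, whose annotated 3′ UTR alone is 18021 bases long. The 5′ UTR held 2.38% to 7.41% of the peaks.

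**Figure D5:**
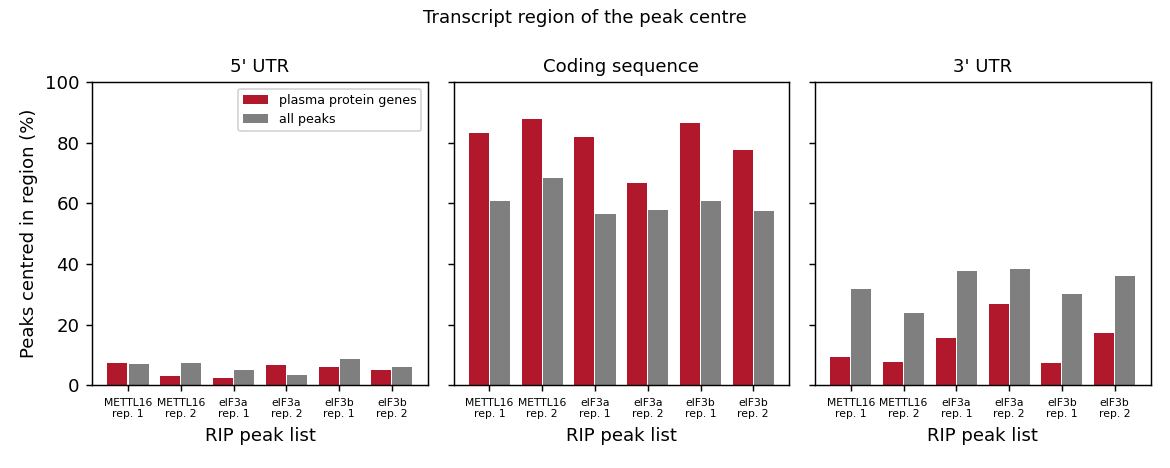
Share of peaks (y axis, percent) whose middle base lies in the 5′ UTR, the coding sequence or the 3′ UTR, for the plasma protein genes and for all peaks of each list (x axis). Coding shares are 66.7% to 87.9% on the plasma protein genes and 56.6% to 68.4% over all peaks.

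The 3′ UTR share of the peaks did not pass a test between proteins. METTL16 lists averaged 8.42% ± 1.19, eIF3a lists 21.1% ± 7.92 and eIF3b lists 12.4% ± 6.96 (SD, n = 2 lists each). METTL16 was lower than eIF3a by 12.7 percentage points with no overlap between the lists, which gave the smallest possible p (exact permutation test, two-sided, p = 0.333). METTL16 minus eIF3b was -3.96 points (exact permutation p = 1) and eIF3a minus eIF3b was 8.70 points (exact permutation p = 0.667). The eIF3a value of 26.7% rests on 4 of 15 peaks, all of them on SERPINA1 and SERPINF2.

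The place of the peaks was compared as the Jaccard index, the exonic bases shared by both lists over the bases in either. On the plasma protein genes it was 0.399 between the METTL16 replicates, 0.0935 between the eIF3a replicates and 0.431 between the eIF3b replicates. Between proteins it averaged 0.167 ± 0.13 for METTL16 and eIF3a, 0.32 ± 0.122 for METTL16 and eIF3b, and 0.288 ± 0.239 for eIF3a and eIF3b (SD over 4 pairs of lists, which share lists). The highest index of all, 0.578, was between eIF3a replicate 1 and eIF3b replicate 2, which had 29 plasma protein genes in common, and the next, 0.481, between METTL16 replicate 1 and eIF3b replicate 1, with 23 in common. Both lie above the indices between replicates of the same protein.

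Stretches covered in at least 5 lists numbered 31 on 16 genes and 4896 bases, with a median of 149 bases. Of these, 22 lay in coding sequence, 1 in the 5′ UTR and 4 in the 3′ UTR, while 2 spanned a start codon and 2 a stop codon. The genes were AGT, AMBP, APOA1, APOA2, APOB, APOE, C3, F10, F2, F5, FGA, FN1, RBP4, SERPINA1, SERPINC1 and SERPINF2. Without the same count over all genes with a peak, these numbers cannot show whether such stretches are more or less frequent on plasma protein genes. All 6 lists met on 4 stretches of 480 bases in all, on C3, SERPINA1 and SERPINF2, and 3 of those 4 were in a 3′ UTR. The other 13 genes had none. F5 had no peak in METTL16 replicate 2, the eIF3a replicate 2 peaks of FGA lay elsewhere on the gene, and the remaining 11 had no peak in eIF3a replicate 2.

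Some recurrent coding stretches were repetitive in sequence. Counted as words of 12 bases found more than once in the same coding sequence, repeats made up 42.7% of the FGA stretch (85 of 199 words) against 4.63% of the whole FGA coding sequence. In F5 they made up 14.2% of the words in recurrent stretches (76 of 535) against 8.66% of its coding sequence. The longest word that occurs more than once in the printed FGA sequence has 30 bases, CTGGGAGCTCTGGACCTGGAAGTACTGGAA, and in the printed F5 sequence it has 11, CCCCAGACCTC, with 2 copies of each. FGA exon 5 and F5 exon 13 are known to code for tandem repeats. Over all the genes the share was 4.60% in recurrent stretches (166 of 3605 words) and 1.08% in all coding sequence, and all but 5 of the 166 repeated words were from FGA and F5. Reads from a repeat can be placed on more than 1 copy, and how the aligner treated them is not given in the sources used here.

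The start codon was covered on 7 of 27 plasma protein genes with a peak in METTL16 replicate 1 (25.9%) and on 4 of 36 in replicate 2 (11.1%). For eIF3a it was covered on 7 of 32 (21.9%) and 1 of 5 (20%), and for eIF3b on 4 of 30 (13.3%) and 6 of 30 (20%). The shares over all genes with a peak were 17.9%, 18.3%, 14.8%, 12.8%, 25.2% and 17.4%, so the plasma protein genes lay above them in 4 lists and below in METTL16 replicate 2 and eIF3b replicate 1. APOB and F5 had the start codon covered in 5 lists and APOA1 and APOA2 in 4. The 30 bases around it on GRCh38 are shown with the start codon in capitals, because these are the sites at which an initiation factor acts.
APOB, chr2:21043928-21043957, minus strand: ccgcagctggcgATGgacccgccgaggccc
F5, chr1:169586369-169586398, minus strand: aggaaaggaagcATGttcccaggctgccca
APOA1, chr11:116837370-116837399, minus strand: cggcccttcaggATGaaagctgcggtgctg
APOA2, chr1:161223384-161223413, minus strand: actgttaccaacATGaagctgctcgcagca

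METTL16 methylates U6 RNA within the sequence ACAGAGA, and these letters were searched on the transcript strand of each peak. It was in 1 of 54 and 4 of 66 METTL16 peaks on plasma protein genes (1.85% and 6.06%), in 3 of 84 and 0 of 15 eIF3a peaks (3.57% and 0%), and in 1 of 67 and 4 of 81 eIF3b peaks (1.49% and 4.94%). Over all peaks the shares were 3.31%, 3.27%, 3.90%, 5.36%, 4.07% and 4.49%. APOA2 was the only gene with the sequence in a peak of both METTL16 lists, and eIF3a replicate 1 and eIF3b replicate 2 covered it too. The printed bases around the match lie across the first intron in the 5′ UTR, between chr1:161223424 and chr1:161223622 on the minus strand. They are shown here after splicing with the match in capitals.
APOA2: agacaccaaggACAGAGAcgctggctaggc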

How the data were processed

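RIP-seq was done on HepG2 cells in 6 RIP samples and 6 inputs, and the 6 deposited peak lists, 1 per RIP sample, were analysed. Per the study's methods, STAR placed the reads on GRCh38 and exomePeak, at its default settings, found where RIP exceeded input. Versions, annotation and the input set against each sample are not given in the sources used here. The authors deposited for each peak a p-value, its log10 and that of the adjusted p-value (both treated as a score), and a fold enrichment, the ratio of RIP over input. These are the caller's values within 1 list and were not compared by any test. No counts were used, so depth is unknown.

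Starts were counted from 0 and were raised by 1. Gene structures were taken from GENCODE release 44, using Ensembl canonical transcripts. Of 10830 gene names, 10325 matched a current symbol, 441 an older one and 64 none. A peak was assigned to the region of its middle exonic base. Intervals are 95% Wilson intervals, and the lists of each pair of proteins, 2 against 2, were set against each other by exact permutation (two-sided). Named genes were those in all 6 lists or none, those in both lists of 1 protein and no other, the 10 with the highest median fold, and the 15 best known plasma proteins. Other genes named in the text were chosen after their values were seen. The 54 genes and all gene lists were chosen with earlier results of these data known. Alternatives were a fold of at least 4, the best 5000 peaks of each list by p-value, genes from a 50% overlap with exons, leaving out each replicate or the 5 genes with near-identical copies, a replicate block, peak bases, and 1 peak per gene. Deviations between replicates were nearly uncorrelated between proteins (correlation of deviations 0.0474, -0.0242 and 0.0108 over 2718 genes). This cannot show whether samples with the same replicate number were prepared together, which the labels do not say. Scripts were tested on simulated data. Python 3.11.15, pandas 2.3.3, scipy 1.17.1 and pysam 0.24.0 were used.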

Additional observations from a re-analysis of the deposited data

How the results depend on the processing

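The 18 results were recomputed in 148 ways, of which 22 moved a value, 5 reversed one and 121 did neither. The last kept the sign of a tested difference, whatever its size, a count within 1.5 times, or an untested value within the replicate SD. No test could pass 0.05 in this design. A fold of at least 4 left 1 gene with a peak in both replicates for METTL16, 0 for eIF3a and 2 for eIF3b. A peak in either replicate counted 38 genes for METTL16 and 32 for eIF3a. Leaving out a replicate gave 27 to 36 genes for METTL16, 5 to 32 for eIF3a (32 without replicate 2) and 30 for eIF3b. The share of genes with a peak then differed by -0.926 to 49.1 percentage points between METTL16 and eIF3a, by -5.56 to 11.1 between METTL16 and eIF3b, and by -46.3 to 3.70 between eIF3a and eIF3b. The values below 0 for METTL16 minus eIF3a and above 0 for eIF3a minus eIF3b came without eIF3a replicate 2, and -5.56 came without METTL16 replicate 2. At a fold of at least 4 METTL16 minus eIF3b was -0.926 and METTL16 minus eIF3a 4.63. Leaving out a replicate, the 3′ UTR share differed by -18.2 to -7.06, -8.87 to 0.955 (above 0 without eIF3b replicate 2) and 3.10 to 14.3 points for the same pairs, and shared bases ranged over 0.0664 to 0.268, 0.234 to 0.407 and 0.0916 to 0.485. Other settings moved some of these further. At a fold of at least 4 the 3′ UTR share differed by -32.9 points between METTL16 and eIF3b, and METTL16 and eIF3a shared 0.0477 of bases. METTL16 minus eIF3a was -20.8 points with 5000 peaks per list and -21.2 with 1 peak per gene and list, and eIF3a minus eIF3b was 18.5 with 5000 peaks. The cause of these shifts was not tested. With the replicate block the share differences stayed at 24.1, 2.78 and -21.3 points and the 3′ UTR differences at -12.7, -3.96 and 8.70 points (exact sign-flip test, p = 0.5 to 1, smallest possible 0.5), and shared bases were 0.173, 0.337 and 0.243. The numbers alone link the samples, so the block is a check only. Peaks carry no depth, so a gene without a peak is not shown to be unbound.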
